A study of Mus musculus with 4 samples.

Results

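The genes that write, maintain and remove DNA methylation were read in 4 mouse cell populations. The 9 genes, taken by symbol from the array annotation, were Dnmt1, Uhrf1, Dnmt3a, Dnmt3b, Dnmt3l, Tet1, Tet2, Tet3 and Tdg. They had 23 of the 45101 probe sets, each a group of short probes for a transcript. Of these probe sets, 20 were annotated to 1 member alone and belonged to 8 genes, among 18193 genes with a probe set of their own on the array. The other 3, those of Tdg, were annotated to Tdg together with its copies Tdg-ps and Tdg-ps2, so that their signal cannot be assigned to Tdg alone and stands outside all counts.

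The populations were neural stem cells induced with 14 factors (iNSC_14F) or with 13 factors (iNSC_13F), primary-derived neural stem cells (NSC) and mouse embryonic fibroblasts (MEF). N2 medium supplemented with laminin and the growth factors EGF and bFGF was used for the induced cells and NSC. The labels used here name neither the medium of MEF nor genotypes, ages or the factors themselves. The title of the series names liver cells and B lymphocytes of adult mice, but no label ties either to an array, and the source label of all 4 samples reads embryonic stem cells. Each population was measured once, on an Affymetrix whole-genome mouse array, so no value has a replicate error, no test was possible and a difference cannot be separated from the variation between arrays.

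Methylation of cytosine in CpG dinucleotides is copied after DNA replication by DNMT1, which UHRF1 brings to the half-methylated daughter strands. DNMT3A and DNMT3B set new methyl groups, and DNMT3L, which has no activity of its own, stimulates them in germ cells and early embryos. TET1, TET2 and TET3 oxidise methylated cytosine, and TDG, a DNA glycosylase, cuts out the further oxidised forms so that base excision repair can restore an unmethylated base. In neural development DNMT1 and DNMT3A are known for their part in the timing of neuronal and glial differentiation, and TET proteins are abundant in brain.

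The promoter windows of Dnmt1, Uhrf1, Tet1 and Tet2 are shown because the contrast below lies between these pairs of genes. They come from RefSeq on GRCm38.p6, run from 250 bases before to 50 bases after a transcript start, and are written 5′ to 3′ on the strand of the gene. All 9 members had a window, 16 in all; of several windows of a gene, that with the most CpG is printed. Capitals mark the E2F-type letters TTTCCCGC, TTTCGCGC, TTTGCCGC or TTTGGCGC on either strand, a form bound by E2F factors of S phase genes. The windows are chr9:20952574-20952873 (minus strand) for Dnmt1, chr17:56304063-56304362 (plus strand) for Uhrf1, chr10:62887275-62887574 (minus strand) for Tet1 and chr3:133544341-133544640 (minus strand) for Tet2.
Dnmt1: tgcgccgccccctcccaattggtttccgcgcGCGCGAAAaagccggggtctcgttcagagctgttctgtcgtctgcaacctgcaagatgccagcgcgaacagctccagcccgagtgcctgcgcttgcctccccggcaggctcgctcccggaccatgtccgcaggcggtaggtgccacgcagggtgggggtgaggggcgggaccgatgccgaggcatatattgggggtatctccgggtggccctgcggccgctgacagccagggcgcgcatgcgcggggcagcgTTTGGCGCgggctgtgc
Uhrf1: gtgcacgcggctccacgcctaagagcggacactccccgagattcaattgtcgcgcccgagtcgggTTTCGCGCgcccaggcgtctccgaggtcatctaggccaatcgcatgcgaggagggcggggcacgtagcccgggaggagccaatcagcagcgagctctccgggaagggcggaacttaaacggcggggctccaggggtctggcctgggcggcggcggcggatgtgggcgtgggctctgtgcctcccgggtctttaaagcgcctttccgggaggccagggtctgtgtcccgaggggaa
Tet1: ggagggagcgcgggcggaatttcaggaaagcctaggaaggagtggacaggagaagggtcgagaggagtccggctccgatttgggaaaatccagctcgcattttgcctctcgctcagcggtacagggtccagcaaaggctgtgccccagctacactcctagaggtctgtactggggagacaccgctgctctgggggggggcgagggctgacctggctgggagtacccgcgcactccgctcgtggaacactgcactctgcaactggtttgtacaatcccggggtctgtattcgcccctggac
Tet2: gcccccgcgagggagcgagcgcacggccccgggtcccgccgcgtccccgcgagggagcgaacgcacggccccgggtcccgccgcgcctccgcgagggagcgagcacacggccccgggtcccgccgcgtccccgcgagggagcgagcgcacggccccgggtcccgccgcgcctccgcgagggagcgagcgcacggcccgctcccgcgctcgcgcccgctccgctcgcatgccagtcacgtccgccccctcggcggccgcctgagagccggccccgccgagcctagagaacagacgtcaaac
These letters occurred in 2 places in the Dnmt1 window and in 1 place in the Uhrf1 window, and in 0 of the other 14 windows of members. Those 14 include the windows of Dnmt3a, which, like Dnmt1 and Uhrf1, was at least 2-fold higher than MEF on both induced arrays. Of all 32851 windows of this length, 2.26% held them. Each form of the letters contains a CpG, and the median window had 7 CpG. The share among windows as rich in CpG as those of Dnmt1 and Uhrf1 was not computed. The Dnmt1 and Uhrf1 windows had 33 CpG each, and 8.56% of all windows had as many or more; that of Tet1 had 17 and that of Tet2 had 57. A match of letters is a description of the sequence and no measure of binding.

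Signals are linear MAS5 values. A value counts as above background where it exceeds a floor of 103.91, the 95th percentile of 86 sensory receptor probe sets (smell, pheromone and taste) on the array where it was highest. A gene takes its brightest probe set, and it is called higher or lower where 2 arrays differ at least 2-fold with the brighter above the floor, which makes it measured in that pair. A fold against an array below the floor is a lower bound, written "at least". Above the floor on some array were 6 members, and Dnmt3l and Tet3 were not among them.

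Arrays held between 9816 and 10522 genes above the floor. Neural stem cell markers (Sox2, Nes, Fabp7, Olig2, Pax6, Slc1a3 and Sox9, 7 with a probe set of 8 listed) were all above the floor on both induced arrays and on NSC, and 3 of them on MEF. Fibroblast markers above the floor numbered 2 of 9 on iNSC_14F, 5 of 9 on iNSC_13F, 1 of 9 on NSC and 8 of 9 on MEF, and their summed signal was 563, 2227, 647 and 129003 in that order. In iNSC_13F 7 of the 8 measured were at least 2-fold lower than in MEF, and Twist1, the other one, read 1241 against 1638. Hepatocyte markers (6) and B lymphocyte markers (5 with a probe set of 6) were below the floor on all 4 arrays. The pluripotency markers Pou5f1, Nanog, Zfp42 and Dppa5a were below it on all arrays too, despite the source label, and Esrrb read 133 on iNSC_14F, 256 on iNSC_13F, 64.1 on NSC and 102 on MEF. Hybridization controls, foreign transcripts added at the hybridization step, were dimmest on the NSC array: they were 1.84-fold higher on iNSC_14F, 2.05-fold on iNSC_13F and 1.84-fold on MEF. Differences of members over NSC, and list medians where given over NSC, are therefore also shown with the arrays scaled to these controls. Signals stand as deposited.

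In the values as deposited, the maintenance pair was brightest in the induced cells. With scaling to hybridization controls, only Dnmt1 in iNSC_14F stayed above NSC, at a log2 difference of 0.26 in its brightest probe set. Uhrf1 came to -0.00 there, and both genes were below NSC in iNSC_13F, as given below. Dnmt1, the maintenance methyltransferase, had a signal of 6825 in iNSC_14F, 4823 in iNSC_13F, 3087 in NSC and 1902 in MEF (probe set 1435122_x_at). Its 1422946_a_at probe set gave 4461, 3855, 2279 and 1572, and 1447877_x_at gave 3293, 2716, 1412 and 939, in the same order of arrays. All 3 probe sets thus ranked iNSC_14F above iNSC_13F, NSC and MEF in turn, with adjacent arrays in that order less than 2-fold apart.

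Uhrf1, which recognises half-methylated DNA, followed the same ranking in its brighter probe set, with 5800 in iNSC_14F, 5148 in iNSC_13F, 3155 in NSC and 2485 in MEF (1415810_at). The dimmer 1415811_at read 654, 699, 491 and 315, with the induced arrays exchanged. Against MEF, Dnmt1 was 3.59-fold higher in iNSC_14F and 2.54-fold higher in iNSC_13F, and Uhrf1 was 2.33-fold and 2.07-fold higher. All 3 probe sets of Dnmt1 passed 2-fold on both induced arrays, with log2 differences from 1.29 up to 1.84, and both of Uhrf1 lay between 1.05 and 1.22.

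**Figure D1:**
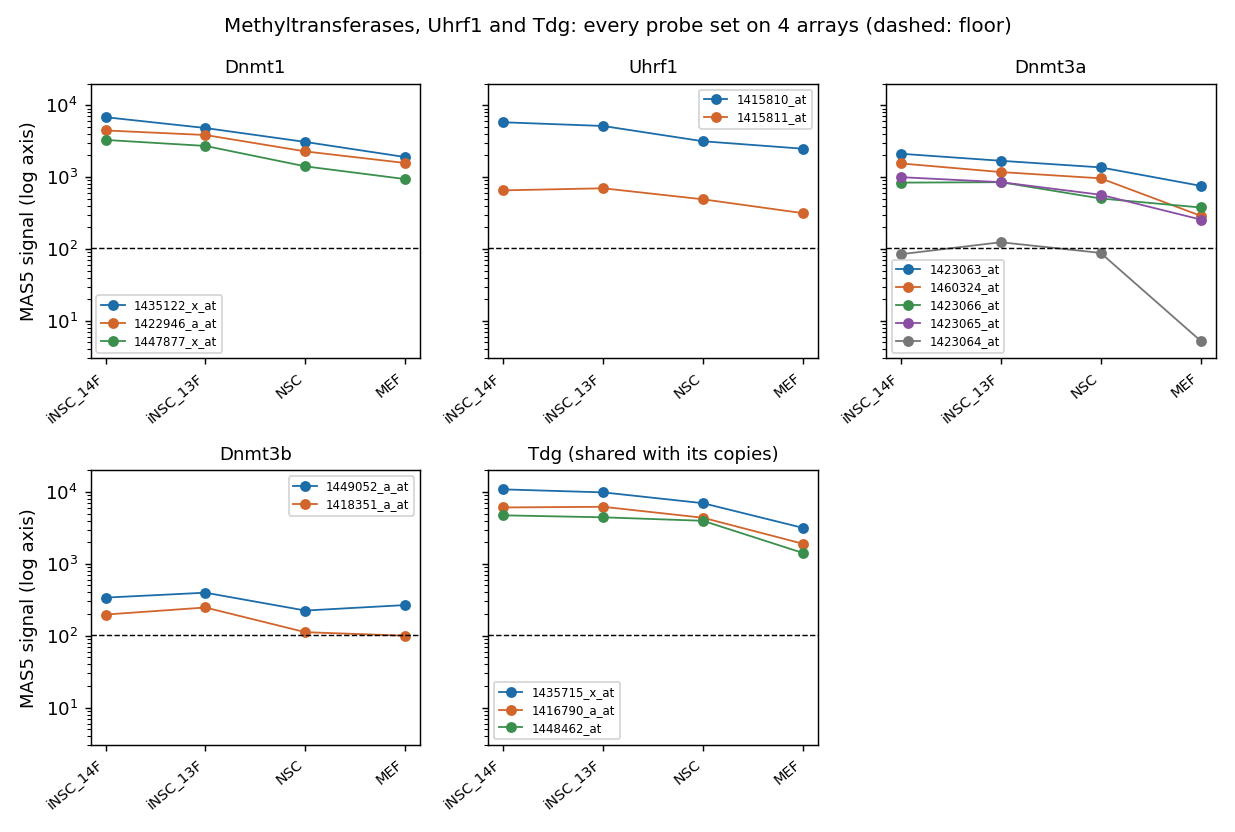
Signal of every probe set of Dnmt1, Uhrf1, Dnmt3a and Dnmt3b, and of the probe sets that Tdg shares with its copies, on the 4 arrays (log axis, 1 array per point; lines join the values of 1 probe set; dashed line, floor of 103.91). In Dnmt1, Uhrf1, Dnmt3a and Tdg all 13 probe sets read lowest on MEF. Of these, 1423064_at of Dnmt3a is above the floor on iNSC_13F alone, so its other arrays cannot be ranked. In the other 12 both induced arrays exceed NSC in the values as deposited, an order that changes with scaling to hybridization controls.

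Dnmt3a, a de novo methyltransferase, had 5 probe sets, of which 4 were above the floor on all arrays, and in those 4 both induced arrays exceeded NSC and MEF in the values as deposited. The order against NSC turned with scaling to hybridization controls. Its brightest, 1423063_at, read 2114 in iNSC_14F, 1688 in iNSC_13F, 1366 in NSC and 757 in MEF. Its 1460324_at, the probe set with the widest contrast of these 4, read 1550, 1176, 962 and 290. The fifth, 1423064_at, exceeded the floor on iNSC_13F alone, at 124, and read 5.28 in MEF. By the brightest probe set Dnmt3a was 2.79-fold higher in iNSC_14F and 2.23-fold higher in iNSC_13F than in MEF, with log2 differences of 1.15 to 2.42 over the 4 probe sets measured in iNSC_14F.

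Dnmt3b, the other de novo enzyme, was dim, and differed less in its brighter probe set. It read 339 in iNSC_14F, 397 in iNSC_13F, 224 in NSC and 267 in MEF (1449052_a_at), and 197, 247, 112 and 100 in 1418351_a_at. As deposited, both probe sets were highest in iNSC_13F, and no pair of arrays was 2-fold apart in the brighter one. The dimmer one was 2.2-fold higher in iNSC_13F than in NSC and at least 2.38-fold higher than in MEF. With scaling to hybridization controls the brighter one turned below NSC, with log2 differences of -0.28 in iNSC_14F and -0.21 in iNSC_13F. The probe sets disagreed on NSC over MEF, with a log2 difference of -0.25 in the brighter and at least 0.11 in the dimmer. Dnmt3l, measured by 1425035_s_at alone, read 4.79 in iNSC_14F, 7.12 in iNSC_13F, 8.48 in NSC and 6.29 in MEF, all far below the floor, so no fold is given.

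Tet1 and Tet2 had another pattern, with NSC on top. Tet1 had a signal of 199 in iNSC_14F, 39.6 in iNSC_13F, 886 in NSC and 18 in MEF (1455425_at). Its 1429448_s_at gave 105, 47.9, 510 and 12.2, and 1419896_at gave 115, 60.8, 214 and 35.5. These 3 probe sets agreed on the order NSC, iNSC_14F, iNSC_13F and MEF, of which the last pair lay below the floor on every one of them and cannot be ranked. The fourth, 1419897_at, was below the floor throughout. Against NSC, Tet1 was 4.46-fold lower in iNSC_14F and lower by at least 8.52-fold in iNSC_13F. NSC in turn exceeded MEF by at least 8.52-fold, the equal bounds coming from the same NSC value over the same floor. Of the 3 measured probe sets, 2 were at least 2-fold lower than NSC in iNSC_14F and 3 in iNSC_13F. The exception, 1419896_at, had a log2 difference of -0.90 in iNSC_14F.

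Tet2 was highest in NSC as well and lowest in iNSC_13F. It read 151 in iNSC_14F, 41.7 in iNSC_13F, 513 in NSC and 230 in MEF (1455300_at), and 63.8, 2.77, 150 and 104 in 1438781_at, which was above the floor on NSC alone. Against NSC it was 3.4-fold lower in iNSC_14F and at least 4.93-fold lower in iNSC_13F, and iNSC_13F was at least 2.22-fold below MEF. These folds are of the brighter probe set. In 1438781_at the log2 differences over NSC were bounds of -0.53 on both induced arrays, short of 2-fold. NSC exceeded MEF by 2.22-fold in the brighter probe set and by a log2 difference of at least 0.53 in the dimmer one, so that only the brighter passed the rule. Tet3 had 1 probe set, 1439324_at, which read 13.1 in iNSC_14F, 23.6 in iNSC_13F, 13.4 in NSC and 19 in MEF. A signal below the floor is no measure of absence, so levels of Tet3 remain unknown here.

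**Figure D2:**
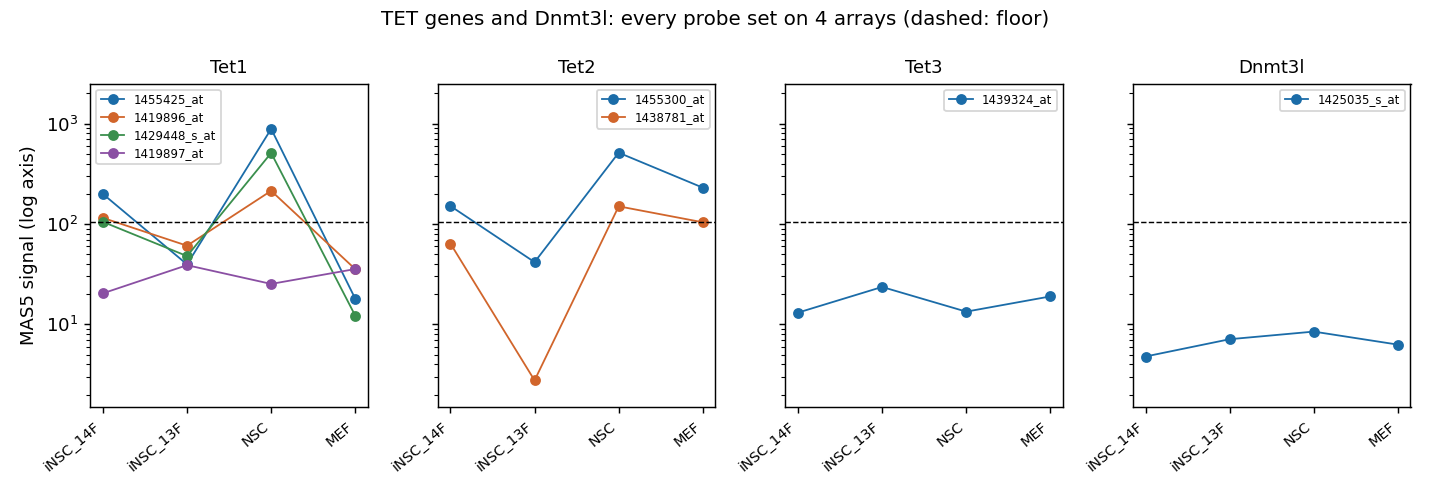
Signal of every probe set of Tet1, Tet2, Tet3 and Dnmt3l on the 4 arrays (log axis, 1 array per point; lines join the values of 1 probe set; dashed line, floor of 103.91). In Tet1 and Tet2, 5 of 6 probe sets exceed the floor on some array and all 5 are highest on NSC; Tet3 and Dnmt3l stay below the floor.

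The probe sets of the glycosylase gene Tdg and its copies were among the brightest of the set. The 1435715_x_at probe set read 10885 in iNSC_14F, 9886 in iNSC_13F, 6991 in NSC and 3171 in MEF. The other 2 gave 6098, 6227, 4386 and 1906 (1416790_a_at) and 4736, 4446, 3976 and 1419 (1448462_at). MEF was lowest in all 3, with log2 differences against it of 1.68 to 1.78 for iNSC_14F, 1.64 to 1.71 for iNSC_13F and 1.14 to 1.49 for NSC. No pair among the other arrays was 2-fold apart. With scaling to hybridization controls the log2 differences over NSC turned to between -0.63 and -0.24 in iNSC_14F and between -0.87 and -0.53 in iNSC_13F.

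Set against all genes, the differences of most members were moderate in size, those of Tet1 in some pairs with NSC being larger. Against MEF, iNSC_14F had 3 of its 6 measured members at least 2-fold higher (Dnmt1, Uhrf1 and Dnmt3a), where 18.1% of all measured genes were, and 0 were lower, against 18.6%. In iNSC_13F 3 of 5 were higher, the same genes, against 15.7%, and 1 was lower (Tet2), against 20.5%. Their median log2 differences were 1.08 and 1.05, and those of all measured genes 0.11 and 0.09. The induced arrays share the MEF array in these comparisons, so the second is no independent repeat of the first. Of all measured genes, 5.43% were as far above MEF as Dnmt1 or farther in iNSC_14F, and 8.74% in iNSC_13F.

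Against NSC, iNSC_14F had 2 of its 6 measured members at least 2-fold lower (Tet1 and Tet2), where 19.1% of all genes were, and 1 was higher (Dnmt1, 2.21-fold), against 16.9%. In iNSC_13F the same 2 genes were lower, against 20.5%, and 0 members were higher, against 14.9%. Median log2 differences were 0.61 for the members and 0.33 for all genes in iNSC_14F, and 0.47 and 0.30 in iNSC_13F. In NSC over MEF, 2 of 6 were higher (Tet1 and Tet2), against 19.6% of all genes, and 0 were lower, against 17.2%, with a median of 0.78 for the members and -0.01 for all genes. Tet1 was far out in that pair: 1.78% of measured genes were as far above MEF or farther.

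Between the induced arrays, iNSC_14F over iNSC_13F, the 2-fold rule was met by 0 of 6 measured members upward and by 0 downward, where 5.99% and 2.95% of all genes were. Dnmt1 was 1.42-fold higher, inside the 2.32-fold that spans 95% of genes above the floor on both arrays. Tet1 was at least 1.91-fold higher and Tet2 at least 1.45-fold higher, and both iNSC_13F signals lay below the floor. Without the floor and with a pseudocount of 16 their log2 differences were 1.95 and 1.53.

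**Figure D3:**
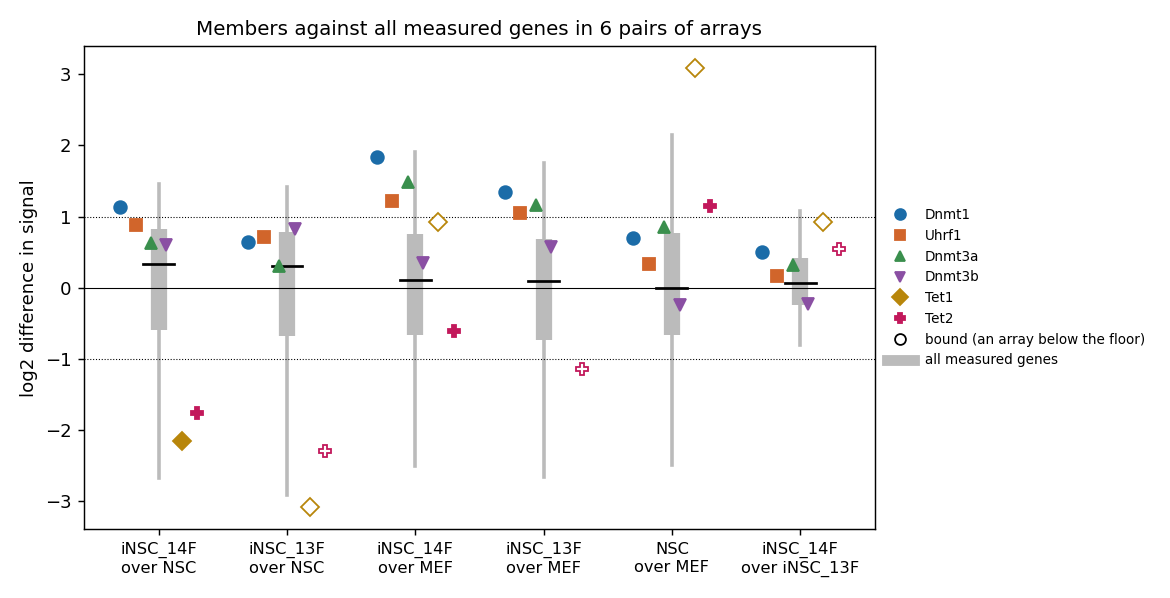
Log2 differences of the 6 members above the floor in 6 pairs of arrays (coloured symbols; open symbols are bounds), beside all measured genes (grey: thin line, 5th to 95th percentile; thick bar, 25th to 75th; black tick, median). Dotted lines mark 2-fold; Dnmt1, Uhrf1 and Dnmt3a lie above the upper line in both comparisons with MEF, and Tet1 and Tet2 below the lower line in both comparisons with NSC.

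The direction of Uhrf1 and the methyltransferases against NSC depended on the scaling, except for Dnmt1 in iNSC_14F, and that of Tet1 and Tet2 did not. With the hybridization controls made equal, the log2 difference of Dnmt1 over NSC was 0.26 in iNSC_14F and -0.39 in iNSC_13F, in place of 1.14 and 0.64. Uhrf1 gave -0.00 and -0.33, Dnmt3a -0.25 and -0.73, and Dnmt3b -0.28 and -0.21, where the deposited values were 0.88 and 0.71, 0.63 and 0.31, and 0.60 and 0.82. Under that scaling the median of all genes was -0.46 for iNSC_14F and -0.61 for iNSC_13F. Tet1 gave -3.04 and -3.97 and Tet2 -2.64 and -3.18, against -2.16, -3.09, -1.76 and -2.30 as deposited, the iNSC_13F values being bounds. In NSC over MEF the median of all genes moved to 0.79, and Dnmt1, Uhrf1 and Dnmt3a, at 1.58, 1.23 and 1.73, then passed the 2-fold rule.

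**Figure D4:**
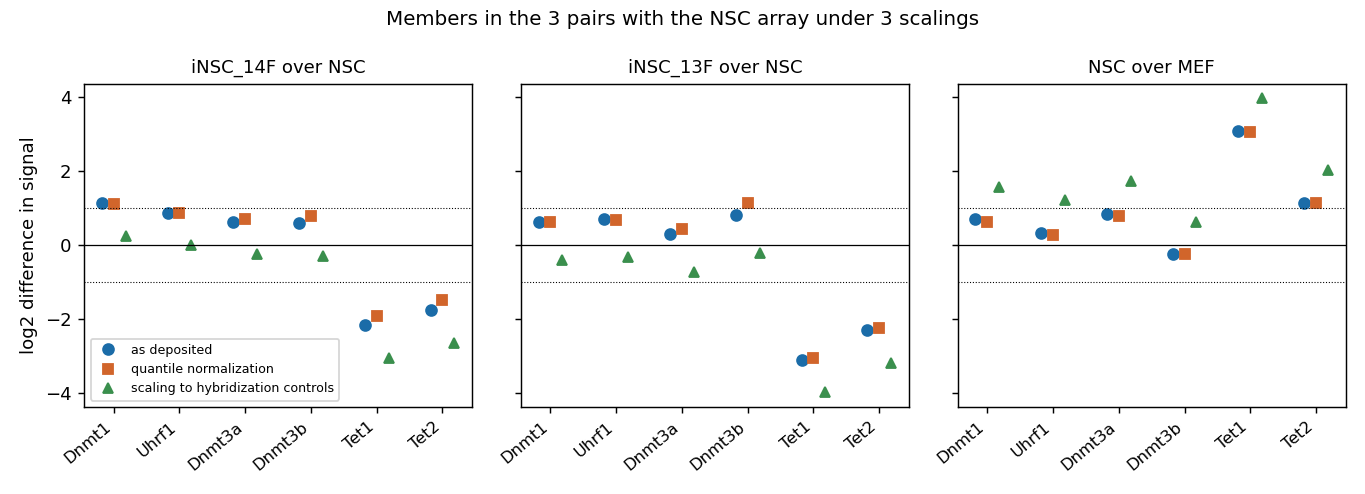
Log2 differences of 6 members in the 3 pairs that hold the NSC array (1 array per population, dotted lines at 2-fold). Values are as deposited, after quantile normalization and after scaling to hybridization controls. Those of Tet1 and Tet2 in iNSC_13F over NSC, and of Tet1 in NSC over MEF, are bounds. Tet1 and Tet2 stay below the lower line in iNSC_14F and iNSC_13F over NSC under all 3 scalings, while in the same pairs Dnmt1 in iNSC_14F goes to 0.26 and Uhrf1, Dnmt3a and Dnmt3b to between -0.73 and 0 when the controls are made equal.

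Of the partners of maintenance methylation, more were higher than lower against MEF. In that comparison 7 of 12 were at least 2-fold higher in iNSC_14F and 4 of 12 in iNSC_13F, with 1 lower on each, and medians of 1.05 and 0.80. Of all measured genes, 18.1% were higher and 18.6% lower in iNSC_14F, and 15.7% and 20.5% in iNSC_13F. The induced arrays' list counts against MEF that follow stand beside these same shares. In NSC over MEF, 4 of 12 partners were higher and 0 lower, against 19.6% and 17.2% of all genes, with a median of 0.56. With scaling to hybridization controls these became 9 and 0, against 42.6% and 8.84%, with a median of 1.45. Lig1, the ligase of replication, read 6445 in iNSC_14F, 5129 in iNSC_13F, 3817 in NSC and 1360 in MEF. Cdca7, which in mouse and human forms a remodelling complex with HELLS, read 2328, 2889, 1818 and 510, and its relative Cdca7l 896, 567, 823 and 255. Hells, the helicase of that complex, went the other way, with 173 in iNSC_14F, 64.3 in iNSC_13F, 2660 in NSC and 705 in MEF. It was lower than NSC with a log2 difference of -3.94 in iNSC_14F and a bound of -4.68 in iNSC_13F in its brightest probe set, though 1 of its 3 probe sets gave -0.08 on both, near the floor.

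Of 16 measured genes of S phase and proliferation, 6 were higher and 3 lower than MEF on each induced array, the lower count being near the share over all genes. Their medians were 0.69 in iNSC_14F and 0.72 in iNSC_13F. In NSC over MEF, 5 of 15 were higher and 0 lower, against 19.6% and 17.2% of all genes, with a median of 0.85. With scaling to hybridization controls these became 13 of 16 and 0, against 42.6% and 8.84%, with a median of 1.71. Mcm2, part of the replicative helicase, read 4969 in iNSC_14F, 4869 in iNSC_13F, 2370 in NSC and 1232 in MEF, an order close to that of Dnmt1. Mki67, a marker of cycling cells, read 385, 180, 5776 and 1292, Top2a, a topoisomerase of mitosis, 778, 510, 8374 and 1985, and Ccne2, a cyclin of S phase entry, 124, 106, 2705 and 529. These 3 were thus highest on NSC and lowest on iNSC_13F, as Tet2 was. The 2 measured probe sets of Top2a differed, with log2 differences of -3.43 and -0.26 for iNSC_14F over NSC. The actin control's ratio of signal at the 3′ end over the 5′ end, a measure of RNA integrity, was 1.65 for iNSC_14F, 1.53 for iNSC_13F, 1.35 for NSC and 1.42 for MEF; the part of RNA integrity in these differences was not tested. In bulk RNA, fewer cells with a transcript and less of it per cell cannot be told apart.

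Readers of methylated CpG varied gene by gene. Of 8 measured against MEF, 2 were higher and 2 lower in iNSC_14F, and 3 and 3 in iNSC_13F, few genes on which to set them apart from the shares over all genes. Mbd3, a subunit of the NuRD complex, read 3330 in iNSC_14F, 3652 in iNSC_13F, 2020 in NSC and 1059 in MEF. Zbtb33, the zinc finger reader Kaiso, read 227, 153, 2667 and 688, and so was 2-fold or more below NSC and MEF on both induced arrays in 1 measured probe set of 2. Zbtb4 was 389, 109, 93.6 and 710, and Zbtb38 86, 136, 156 and 373, both highest in MEF.

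Genes of base excision repair, with the GADD45 genes linked to demethylation, had 4 of 12 higher and 2 lower than MEF in iNSC_14F, and 3 and 2 in iNSC_13F. The lower counts were near the shares over all genes, and 12 genes are few to set the higher counts apart from them. Neil1, a glycosylase, read 733 in iNSC_14F, 486 in iNSC_13F, 201 in NSC and 188 in MEF. Ung, the uracil glycosylase, read 1685, 2679, 1192 and 468. Gadd45b and Gadd45g, stress response genes, were highest in MEF and lowest in NSC, with 470, 474, 88.3 and 2312 for Gadd45b and 1669, 854, 306 and 5963 for Gadd45g. The induced cells lay between the references for both genes, also with scaling to hybridization controls.

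Over NSC, the medians of the 4 lists above changed sign with scaling to hybridization controls. Among named genes, Lig1 went to log2 differences of -0.12 in iNSC_14F and -0.61 in iNSC_13F, from 0.76 and 0.43. Cdca7 went to -0.52 and -0.36 and Mbd3 to -0.16 and -0.18, all higher as deposited. Ung and Cdca7l turned to -0.38 and -0.76 in iNSC_14F. In iNSC_13F Ung stayed higher, at 0.14. Mcm2 shrank to 0.19 and 0.01, and Neil1 to 0.99 and 0.24. Hells, Zbtb33, Mki67, Top2a and Ccne2 stayed lower on both. Of all measured genes, 16.9% were higher and 19.1% lower in iNSC_14F, and 14.9% and 20.5% in iNSC_13F. Maintenance partners had 1 of 12 higher and 2 lower in iNSC_14F, and 0 and 2 in iNSC_13F, with medians of 0.54 and 0.38 that became -0.34 and -0.65 with scaling to hybridization controls. S phase genes had 2 of 16 higher and 4 lower in iNSC_14F, and 3 and 4 in iNSC_13F, with medians of 0.23 and 0.52 that became -0.61 and -0.51. Readers had 1 of 9 higher and 1 lower on each induced array, which became 1 and 4 in iNSC_14F and 0 and 4 in iNSC_13F, and their medians of 0.48 and 0.07 became -0.40 and -0.73. Repair genes had 4 of 12 higher and 1 lower in iNSC_14F and 6 and 1 in iNSC_13F, which became 2 and 2, and 1 and 3, under that scaling, with medians of 0.76 and 0.95 that became -0.12 and -0.09.

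Germline genes known in mouse to be held silent by promoter methylation were largely undetected. Of 18 with a probe set (19 listed), 17 were below the floor on all 4 arrays, among them Dazl, Ddx4 and Sycp3. The other, Asz1, read 142 in iNSC_14F, 128 in iNSC_13F, 27.3 in NSC and 156 in MEF. Of all 18193 genes, between 9816 and 10522 were above the floor per array, which left many other genes below it too. The share of all genes below it on all 4 arrays was not computed, and DNA methylation itself was not measured.

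The genes most like Dnmt1, Uhrf1 and Dnmt3a over the 4 arrays were found by the distance between log2 signals after each gene's mean was taken off, among 8110 genes outside the lists that were above the floor on all arrays. Lancl1 (0.046), Vps37d (0.052) and Fen1 (0.077), the flap endonuclease of replication, were nearest to Dnmt1. Robo1, Osgep and H2aw were nearest to Uhrf1, at 0.039 to 0.057, and Stard3, Dmac1 and Cenpx to Dnmt3a, at 0.046 to 0.089. These are the smallest of 8110 distances by choice. The distances between members were not so chosen. They were 0.441 for Dnmt1 and Uhrf1, 0.387 for Dnmt1 and Dnmt3a and 0.381 for Uhrf1 and Dnmt3a. Dnmt3b, the other member above the floor on all arrays, lay farther off. Its distances were 1.072 from Dnmt1, 0.633 from Uhrf1 and 0.924 from Dnmt3a. With 4 points per gene, likeness as close as that of Dnmt1, Uhrf1 and Dnmt3a is common. Nearer to Dnmt1 than Uhrf1 was lay 261 genes, and nearer to Uhrf1 than Dnmt1 was lay 909.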

How the data were processed

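Total RNA of 4 mouse cell populations was hybridized with a biotin label, 1 array each, per the labels' protocols, and samples were grouped by their cell type label. The deposited values are linear intensities per probe set, made with MAS5 per the submitters' processing notes; the sources used here give no version or settings of it. The 2% trimmed mean of the deposited intensities was 500 on all 4 arrays, and no further scaling was applied. Gene names came from the annotation of the array platform, updated by ID with GRCm38.p6: 34945 had 1 gene (34741 matched by ID), 932 had several, 9160 had none, and 64 were controls. Values below the floor were set to it before log2. With 1 array per group, calls followed the 2-fold rule, with no test. The code of the rule was run on simulated data with an assumed noise, in which only genes far above the floor were changed. No change near 2-fold and none in dim genes such as Tet2 was simulated, so that run cannot tell how reliable such calls are. Precision is limited by the number of arrays and by signal over background. Members, lists, markers and rules were chosen with earlier results of these data known. All members were named, up to 4 genes per list with the widest range, and the 3 nearest genes of each member above the floor on all arrays with a 2-fold range. Fibroblast, neural stem cell and pluripotency marker genes given by name with values, such as Twist1, and Dazl, Ddx4 and Sycp3 were named after their values were seen. Alternatives were quantile normalization, scaling to 18 hybridization control probe sets, a floor at the 99th percentile, a pseudocount of 16 in place of the floor, a gene's median probe set value, and leaving out probe sets ending in _s_at or _x_at. Python 3.11.15, pandas 2.3.3 and numpy 2.4.6 were used.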

Additional observations from a re-analysis of the deposited data

How the results depend on the processing

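Tet1 and Tet2 were at least 2-fold lower than NSC on both induced arrays under all 6 alternatives, and Dnmt1 and Dnmt3a at least 2-fold higher than MEF on both. Uhrf1 in iNSC_13F over MEF missed 2-fold with quantile normalization and with scaling to hybridization controls (log2 0.95 and 0.90). Of the recomputed member counts, 62 stayed within 1.5 times the count as deposited and 10 did not. Among the 62, members higher in iNSC_14F over MEF numbered 4 (Tet1 added) with quantile normalization and with the pseudocount, and members higher in iNSC_13F over MEF numbered 2 (without Uhrf1) with quantile normalization and with scaling to hybridization controls, in place of 3 each. Members higher in iNSC_14F over NSC numbered 0 with scaling to hybridization controls, with the median of probe sets and without _s_at and _x_at probe sets, in place of 1 (Dnmt1). Members higher in iNSC_13F over NSC numbered 1 (Dnmt3b) with quantile normalization, in place of 0. Members lower in iNSC_13F over MEF numbered 0 with the floor at the 99th percentile (182.7) and with the median of probe sets, in place of 1 (Tet2). Members higher in NSC over MEF numbered 5 with scaling to hybridization controls and 1 with the median of probe sets, in place of 2. Members higher in iNSC_14F over iNSC_13F numbered 1 (Tet1) with quantile normalization and 2 (Tet1 and Tet2) with no floor and a pseudocount of 16, in place of 0. The pseudocount alternative still required the brighter array above the floor. No member that passed the rule as deposited changed direction; Dnmt3b in iNSC_13F over NSC, which passed it with quantile normalization alone (1.14), was at -0.21 with scaling to hybridization controls. Among all genes, the share of calls that were higher was 7.22% with scaling to hybridization controls in iNSC_14F over NSC (47% as deposited), 3.72% in iNSC_13F over NSC (42%), 82.8% in NSC over MEF (53.3%) and 80.9% in iNSC_14F over iNSC_13F (67%); with quantile normalization it was 53.5% in iNSC_13F over NSC, and with the median of probe sets or the pseudocount 56.9% and 55.9% in iNSC_14F over iNSC_13F. Of the other recomputed values, for single members and for the gene lists, 546 stayed within 1.5-fold and 94 moved. The cause of these changes was not tested. Dim signal limits Tet2, Tet3, Dnmt3l and the lower Tet1 values. No paired analysis was possible because each group has 1 array.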

Other observations

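Genes that supply cofactors of these enzymes or bind them were read as well; those named have the widest range of their list. Ogt, the transferase known to bind TET proteins, read 695 in iNSC_14F, 213 in iNSC_13F, 2721 in NSC and 677 in MEF, with 3 of 4 measured probe sets at least 2-fold lower than NSC on each induced array. Against MEF in iNSC_14F its brightest probe set gave a log2 difference of 0.04, while 3 of 4 were at least 2-fold lower. Cxxc5, a CXXC zinc finger protein, was highest in the induced cells, at 7035 and 10830 in iNSC_14F and iNSC_13F, against 4505 in NSC and 1646 in MEF. Shmt1, a serine hydroxymethyltransferase of one-carbon metabolism, read 1988, 2971, 1276 and 427 in the same order of arrays. Idh1, which makes the oxoglutarate that TET enzymes use, read 8340, 5744, 11211 and 4019. Of 10 measured genes of this list, 4 were higher and 0 lower than MEF in iNSC_14F and 2 were higher and 1 lower in iNSC_13F, with medians of 0.41 and 0.44. Of all measured genes, 18.1% were higher and 18.6% lower in iNSC_14F, and 15.7% and 20.5% in iNSC_13F. Over NSC, Cxxc5 and Shmt1 in iNSC_14F, at log2 differences of 0.64 each, turned to -0.24 with scaling to hybridization controls. In iNSC_13F they were 1.27 and 1.22 as deposited and 0.23 and 0.19 with that scaling, under 2-fold but not turned, while in iNSC_14F Ogt moved to -2.85 from -1.97.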
